A study of Mus musculus with 8 samples.

Results

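The genes described here encode the proteins of tight junctions and desmosomes, and they were taken by name, as parts of these 2 structures. The list holds 41 gene symbols: 13 claudins, 18 other tight junction genes and 10 desmosome genes. Of these, 40 have a row among the 24537 genes of the deposited count table, and all 40 passed the filter on low counts that left 14728 genes for testing. Pals1, a polarity protein of the tight junction, has no row of that symbol. The row Mpp5, which lists Pals1 as an alias, is given with the other tight junction genes and is not counted among the 40.

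RNA was sequenced from 8 mouse pancreatic tumours, each taken from 1 mouse of strain FVB/NJ at 44 to 49 days of age, dissociated and sorted for the surface protein EpCAM without culture. Pdx1-Cre, Trp53 f/f and Rosa26 LSL-Luc were among the alleles of all 8 mice, so Cre was driven by the Pdx1 promoter, which is active in the pancreatic lineage. The 4 tumours labelled KO came from mice with both Lifr alleles floxed (Lifr f/f). The 4 labelled WT were of mixed genotype, with Lifr f/+ in replicates 1 and 2 and Lifr +/+ in replicates 3 and 4, so that Cre could act on 1 Lifr allele in the f/+ mice. Values are given as CPM, the counts of a gene as a share of its library's counts, on a scale set by the TMM method, which equalises the bulk of genes between libraries.

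Tight junctions seal the space between neighbouring epithelial cells near their apical side. Claudins form the strands, some as a barrier and some as pores for ions or water. Occludin and related proteins and immunoglobulin-like adhesion molecules lie beside them, and scaffold and polarity proteins tie them to the actin cytoskeleton and mark the apical border. Desmosomes are spot junctions that anchor keratin filaments: desmosomal cadherins bridge the cells, armadillo proteins bind the cadherin tails and plakins reach the filaments. Claudin 4 and claudin 18 are known in pancreatic tumours of duct-like form, and loss of junction proteins is a familiar part of epithelial dedifferentiation.

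Lifr, the gene the labels say was deleted, was not lower in the libraries labelled KO. Its level was 158, 205, 150 and 220 CPM in KO replicates 1 to 4 and 126, 93.7, 71.8 and 99.6 CPM in WT replicates 1 to 4. The groups did not overlap, and the log2 fold change was 0.90 ± 0.19 (SE, n = 4 each, edgeR adjusted p = 0.0121), upward. The labels used here do not say which part of Lifr is floxed, and the count spans the whole transcript. Every direction below is therefore that of the libraries labelled KO against those labelled WT. Total counts ran from 14938875 to 22698340 per library. Epcam, the gene of the sorted antigen, was at 419, 360.3, 406 and 499 CPM under the KO label and at 748, 802, 890.4 and 660.3 under the WT label (log2 fold change −0.88 ± 0.13, edgeR adjusted p = 0.00519). Of 24 general epithelial genes, Epcam and Cdh1 among them, 16 were lower and 0 higher, and their summed level was 4158 to 5742 CPM under the KO label and 7688 to 10271 under the WT label. Summed macrophage markers were at 23380 to 30404 CPM against 9276 to 16262, with 13 of 16 higher and none of the 16 at 0. General leukocyte markers were at 3998 to 4745 CPM against 1836 to 2834, with 9 of 10 higher. Of all tested genes, 10.8% were lower and 11.1% higher, at an adjusted p under 0.05. In such bulk libraries fewer epithelial cells and less junction RNA per epithelial cell cannot be told apart.

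Junction genes were lower as a group in the tumours labelled KO. Of the 40, 27 passed the test as lower, 1 as higher and 12 in neither direction, while 10.8% of all tested genes were lower and 11.1% higher at the same threshold, an adjusted p under 0.05. Of all calls 50.7% were higher, and with libraries scaled by their totals alone 22.5% were. With that scaling 33 members were lower and 1 higher, beside 3108 lower and 900 higher of all 14728 tested genes. The median log2 fold change of the 40 was −0.70 against 0.011 for all tested genes. For 25 of the 40 the highest KO value was under the lowest WT value, beside 12.3% of all genes, and for 1 the lowest KO value was over the highest WT value, beside 13.1%. Claudins were the most divided class, with 6 of 13 lower, 1 higher and a median of −0.76. Of the other tight junction genes 12 of 17 were lower (median −0.69), and of the desmosome genes 9 of 10 (median −0.65). Together the 40 genes made up 0.262% ± 0.014 of all counts under the KO label and 0.483% ± 0.066 under the WT label (SD, n = 4 each).

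**Figure D1:**
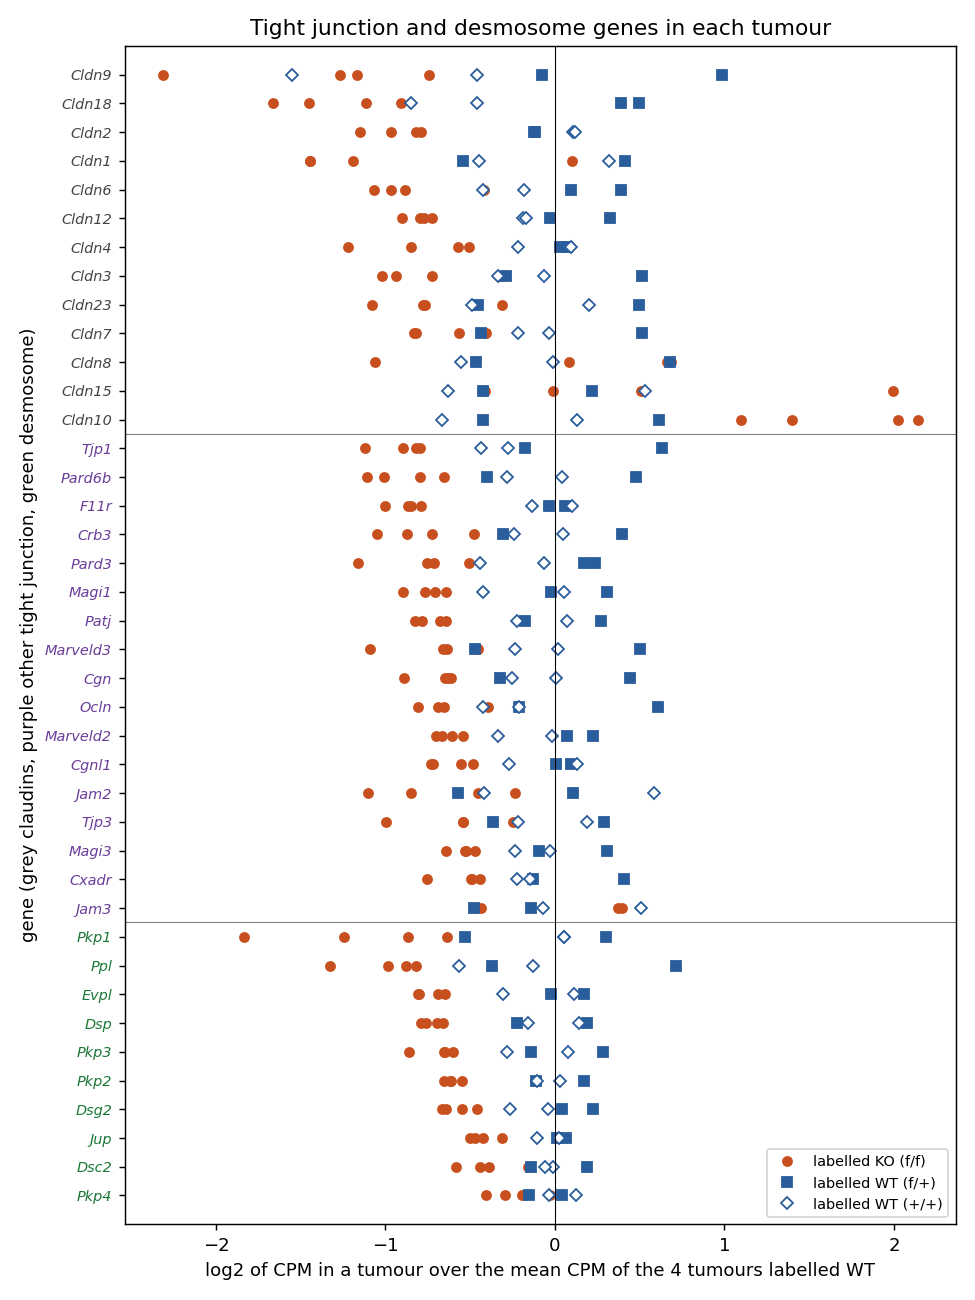
Level of each of the 40 junction genes in each tumour, as the log2 of its CPM over the mean CPM of the 4 tumours labelled WT (x axis), with genes in rows by class and fitted fold change. Orange circles are the 4 tumours labelled KO, filled blue squares the 2 labelled WT with Lifr f/+ and open diamonds the 2 with Lifr +/+. For 25 genes the circles all lie left of the blue symbols, and for Cldn10 they all lie right.

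Leaving out 1 tumour at a time kept 16 of the 27 lower calls in every fit, and 11 lost the call in at least 1 fit. The count of lower members fell to 17 without KO replicate 2 and was 22 to 28 without any other tumour. Lower calls among all tested genes fell too, from 1586 of 14728 to 837 of 14962 without KO replicate 2. They numbered 999 to 1592 without any other tumour. Without KO replicate 2, Cgn, Pard6b and Crb3 missed the threshold, and did so in that fit alone, with edgeR adjusted p of 0.0531, 0.0531 and 0.0604. The other 8 that lost it in some fit were Cldn3, Cldn6, Cldn18, Tjp1, Cxadr, Dsc2, Pkp1 and Ppl, and each kept its sign in all 8 fits. Leaving out KO replicate 1 and WT replicate 2 together, the tumours with the highest acinar sum of their groups, gave 20 lower members, and Cldn3, Cldn6, Cldn18, Crb3, Cxadr, Dsc2 and Ppl lost the call, at edgeR adjusted p of 0.0532 to 0.158. In that fit 964 of all 14649 tested genes were lower. In the other direction, 5 members that did not pass were lower in 1 fit each: Cldn1 without KO replicate 4, Cldn7 and Marveld3 without WT replicate 1, and Cldn9 and Ocln without WT replicate 4.

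Reference sequences give the start sites of 3 genes that stand for different patterns: Cldn4 had the highest level per length, F11r had one of the smallest errors, and Cldn10 was the one member that rose. Each line is the 300 bases from 250 before to 50 after the RefSeq transcript start (build GRCm38.p6), written along the gene's strand. Capitals mark CACCTG on either strand, the E-box form that the Snail and Zeb repressors of epithelial genes are known to bind, so that CAGGTG is the same word read on the other strand. The Cldn4 window is chr5:134946885-134947184 (minus strand), the F11r window chr1:171437311-171437610 (plus strand) and the Cldn10 window chr14:118854700-118854999 (plus strand).
Cldn4: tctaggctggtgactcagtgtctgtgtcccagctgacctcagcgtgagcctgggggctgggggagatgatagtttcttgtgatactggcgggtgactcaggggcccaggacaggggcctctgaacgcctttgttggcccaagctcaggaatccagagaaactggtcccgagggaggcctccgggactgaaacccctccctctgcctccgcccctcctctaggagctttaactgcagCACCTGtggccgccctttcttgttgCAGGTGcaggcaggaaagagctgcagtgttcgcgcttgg
F11r: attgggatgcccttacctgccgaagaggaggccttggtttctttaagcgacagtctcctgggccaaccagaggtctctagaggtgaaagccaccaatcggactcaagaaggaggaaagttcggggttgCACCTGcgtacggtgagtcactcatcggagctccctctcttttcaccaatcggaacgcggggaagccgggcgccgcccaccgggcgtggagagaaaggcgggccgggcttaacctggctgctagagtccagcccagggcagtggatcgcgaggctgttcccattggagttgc
Cldn10: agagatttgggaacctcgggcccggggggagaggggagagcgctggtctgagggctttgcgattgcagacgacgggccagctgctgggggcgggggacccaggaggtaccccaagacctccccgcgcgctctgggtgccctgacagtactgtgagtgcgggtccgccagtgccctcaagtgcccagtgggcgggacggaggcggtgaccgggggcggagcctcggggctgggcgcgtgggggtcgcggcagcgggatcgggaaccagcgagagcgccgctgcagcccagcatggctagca
There are 2 words in capitals for Cldn4, 1 for F11r and none for Cldn10. For 23 of the 40 members the RefSeq table has a window at the start of the counted transcript, and 11 of these 23 (47.8%) hold CACCTG, beside 20.2% of all 32851 windows in the table. They belong to Cldn3, Cldn4, Cldn6, Cldn7, Ocln, Marveld2, F11r, Tjp3, Pard6b, Patj and Dsp. Of these, Cldn7, Ocln and Tjp3 passed in neither direction and the others were lower. The word was absent for Cldn2, Cldn12, Cldn18, Tjp1, Cgnl1, Pard3, Magi3 and Jup, which were lower too. It was also absent for Cldn1, Cldn15 and Pkp4, which passed in neither direction. The palindrome TTCNNNGAA of STAT factors stood in 2 of the 23, Cldn7 and Cldn12, beside 8.30% of all windows, and AACCGGTT of grainyhead-like factors in none of the 23, beside 0.146%. These are letter matches only. The 23 windows are 1 per member. The 32851 windows cover 27025 genes, tested or not, some with more than 1 window, so these shares are of unlike sets. Neighbouring members on the genome were Cldn3 and Cldn4, 39280 bases apart, Cldn6 and Cldn9, 138 bases apart, and Ocln and Marveld2, 43459 bases apart.

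Among claudins, Cldn4, a barrier claudin, had the highest level for its transcript length, at 290.0 ± 27.7 CPM per kilobase in the tumours labelled WT (SD, n = 4). Next on that scale was Cldn2, which forms pores for small cations and water, at 171 ± 15.7. Cldn6, a claudin of embryonic epithelia, Cldn7 and Cldn3 followed at 109 ± 26.6, 101 ± 30.1 and 79.1 ± 23.4, and these 3 did not differ beyond their spread. The junctional adhesion gene F11r, at 95.5 ± 6.78, lay within their range. Below Jup, the gene of plakoglobin, at 66.6 ± 3.37, no member exceeded the 38.2 ± 5.49 of Dsp, and the lowest were Cldn8 at 1.28 ± 0.54 and Jam3 at 0.53 ± 0.16.

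Both abundant claudins were lower under the KO label. Cldn4 stood at 369, 291, 225 and 353 CPM in KO replicates 1 to 4 and at 535, 551, 560.5 and 451 CPM in WT replicates 1 to 4. The groups did not overlap, and KO replicate 3 was the lowest. The difference was 1.70-fold in the mean (log2 fold change −0.76 ± 0.16, SE, edgeR adjusted p = 0.0130). Cldn2 stood at 296, 267, 236 and 303 CPM against 482, 480.4, 562 and 567 CPM, again with no overlap. Its log2 fold change was −0.93 ± 0.11 (edgeR adjusted p = 0.00440), a 1.90-fold lower mean, and the call held with each tumour left out.

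Cldn18, whose isoforms are typical of stomach and lung, had the largest called decrease of the 40. In KO replicates 1 to 4 it stood at 20.7, 14.2, 24.0 and 16.4 CPM, and in WT replicates 1 to 4 at 58.7, 63.2, 32.6 and 24.9 CPM. The 2 f/+ tumours were far above the rest, and WT replicate 4 lay within 1 CPM of KO replicate 3. The log2 fold change was −1.25 ± 0.31 (edgeR adjusted p = 0.0231). It was −1.69 against the f/+ tumours alone (adjusted p = 0.0122) and −0.61 against the +/+ tumours alone (adjusted p = 0.137). Leaving out KO replicate 2, KO replicate 4 or WT replicate 1 also ended the call, with adjusted p up to 0.0695, as did leaving out the 2 tumours of highest acinar sum (−1.09, adjusted p = 0.0889).

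Of the other claudins, 3 fell. Cldn12 was at 23.9 to 27.0 CPM under the KO label and 39.3 to 56.0 under the WT label, with no overlap (log2 fold change −0.80 ± 0.12, edgeR adjusted p = 0.00519). Cldn6 was at 88.6, 78.1, 83.7 and 123 CPM against 175, 214, 144 and 122 CPM, so that KO replicate 4 reached the lowest WT value (−0.81 ± 0.20, edgeR adjusted p = 0.0222, up to 0.0682 with 1 tumour left out). Cldn3, a barrier claudin, was at 52.2, 49.2, 79.3 and 60.2 CPM against 81.8, 143, 95.4 and 79.1. Its groups touched at KO replicate 3 and WT replicate 4, and WT replicate 2 stood well above the other tumours. The log2 fold change was −0.73 ± 0.22 (edgeR adjusted p = 0.0446), and the call held in only 2 of the 8 fits that leave out a tumour, those without KO replicate 3 and without WT replicate 4. It was −0.50 without WT replicate 2 and −0.44 without both tumours of highest acinar RNA.

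Of the claudins, 6 passed in neither direction. Cldn7, at 73.7 to 99.2 CPM against 96.9 to 187, had a log2 fold change of −0.64 ± 0.20 and an edgeR adjusted p of 0.0503. Cldn1, the barrier claudin of skin, was at 7.13, 8.52, 7.15 and 20.9 CPM against 25.9, 13.4, 24.2 and 14.3 CPM, and only KO replicate 4 overlapped the WT range (−0.82 ± 0.40, edgeR adjusted p = 0.171). Without that tumour the log2 fold change of Cldn1 was −1.37 and passed the test (edgeR adjusted p = 0.0162). Cldn23 was at −0.71 ± 0.27 (edgeR adjusted p = 0.0898). The other 3 were low. Cldn9 was at 0.69 to 2.06 CPM against 1.18 to 6.85, and Cldn8, a claudin of kidney tubules, at 1.45 to 4.85 against 2.06 to 4.84. Cldn15, a cation pore of the gut, was at 11.3, 7.91, 31.8 and 5.99 CPM against 5.94, 9.27, 5.15 and 11.5, so that its log2 fold change of 0.83 ± 0.53 (edgeR adjusted p = 0.288) leaned on KO replicate 3.

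Cldn10, a claudin of ion-selective pores, rose. It stood at 19.0, 20.7, 12.4 and 10.02 CPM in KO replicates 1 to 4, from 178 to 384 counts per library, and at 3.49, 7.17, 2.96 and 5.13 CPM in WT replicates 1 to 4, from 66 to 154 counts. Each tumour labelled KO lay above each labelled WT. The mean was 15.5 ± 5.13 against 4.69 ± 1.90 CPM (SD, n = 4 each), 3.31-fold higher, with a log2 fold change of 1.73 ± 0.34 (edgeR adjusted p = 0.0101). Without any 1 tumour it stayed between 1.55 and 2.01, and the largest adjusted p was 0.0324. Against the f/+ tumours alone it was 1.54 (edgeR adjusted p = 0.0585). Summed acinar markers also varied, at 48911, 9659, 31094 and 2081 CPM under the KO label and 1094, 10069, 476 and 1040.0 CPM under the WT label. Of 18 acinar genes 0 were called by edgeR, 6 had an unadjusted p under 0.05, and none lacked counts. All 18 had a log2 fold change above 0, with a median of 2.85, beside 0.011 for all tested genes. KO replicate 1 and WT replicate 2 had the highest acinar sum of their groups. Once both were left out, the log2 fold change of Cldn10 was 1.90 (edgeR adjusted p = 0.0258). The acinar sums of the tumours left still ran from 2081 to 31094 CPM under the KO label and from 476 to 1094 under the WT label. The part of acinar RNA in the Cldn10 difference was not tested. RefSeq lists 2 starts for Cldn10, 67079 bases apart, and the transcript counted begins at the downstream one.

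**Figure D2:**
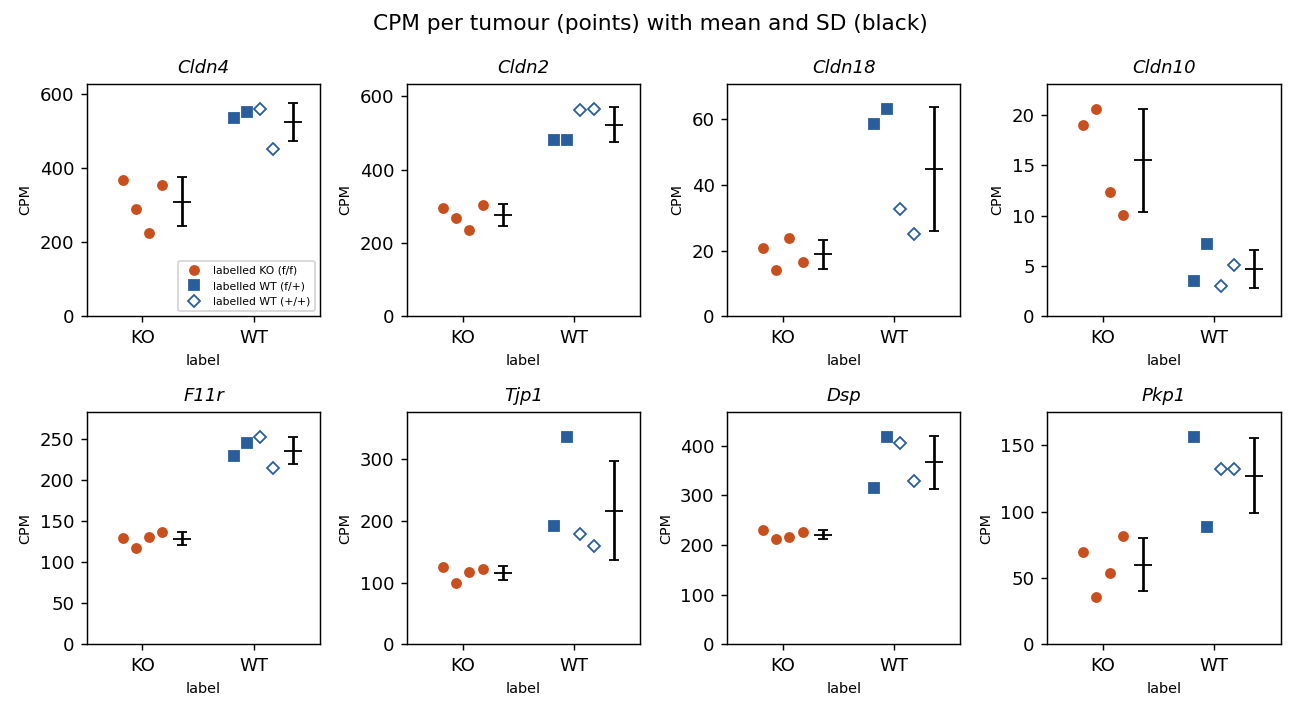
CPM of 8 junction genes in each tumour (y axis from 0, in CPM, by label on the x axis), with the mean and SD of each group in black. Cldn10 alone is higher under the KO label, at 10.02 to 20.7 CPM against 2.96 to 7.17, and the f/+ tumours (filled squares) stand apart from the +/+ tumours (open diamonds) for Cldn18.

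Among the other strand proteins of the tight junction, 1 of 3 fell. Marveld2, which encodes tricellulin, the protein of the points where cells meet at corners, was at 27.0 to 30.1 CPM under the KO label and 34.7 to 51.2 under the WT label (log2 fold change −0.63 ± 0.12, edgeR adjusted p = 0.00885). Ocln, the gene of occludin, was at 30.8, 31.6, 37.8 and 28.4 CPM against 43.0, 75.8, 42.9 and 37.1 CPM. WT replicate 2 was far above the rest, and KO replicate 3 overlapped WT replicate 4 (−0.63 ± 0.22, edgeR adjusted p = 0.0727, and −0.35 without WT replicate 2). Marveld3 had a like value, −0.69 ± 0.22, with an edgeR adjusted p of 0.0558.

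F11r, the gene of junctional adhesion molecule A, separated the groups with little spread. It stood at 129.5, 118, 131 and 137 CPM in KO replicates 1 to 4 and at 229.9, 245, 253 and 215 CPM in WT replicates 1 to 4. No value of one group came near the other, and the mean was 1.83-fold lower (log2 fold change −0.87 ± 0.080, edgeR adjusted p = 0.00440). Cxadr, the coxsackievirus and adenovirus receptor, was at 147, 147, 152 and 123 CPM against 189, 274, 187 and 177 CPM. Its log2 fold change was −0.54 ± 0.15 (edgeR adjusted p = 0.0326), with the call lost in 6 of the 8 fits that leave out a tumour, at adjusted p up to 0.0753. Jam2 and Jam3, adhesion molecules also known in endothelium, passed in neither direction. Jam2 was at −0.61 ± 0.28 (edgeR adjusted p = 0.155), and Jam3 was near 1 CPM in every tumour. Summed endothelial markers were at 47.4 to 55.5 CPM against 53.3 to 74.0.

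Of 6 scaffold genes, which join the strands to the cytoskeleton, 5 fell. Tjp1, encoding ZO-1, was at 125, 99.6, 117 and 123 CPM under the KO label and 192, 336, 178 and 160.0 CPM under the WT label. WT replicate 2 set most of the WT spread. The log2 fold change was −0.90 ± 0.22 (edgeR adjusted p = 0.0232), and −0.61 without that tumour (adjusted p = 0.0116). The call was lost without KO replicate 2 or KO replicate 3 (adjusted p up to 0.0710). Tjp3, encoding ZO-3, was at −0.56 ± 0.19 and did not pass (edgeR adjusted p = 0.0678). Cgn and Cgnl1, the genes of cingulin and paracingulin, fell by 0.69 and 0.62 on the log2 scale. Magi1 and Magi3, which encode guanylate kinase scaffolds, fell by 0.75 and 0.54, with edgeR adjusted p of 0.00947 and 0.0141.

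All 4 polarity genes fell, and none overlapped between the groups, beside 12.3% of all genes with every KO value under every WT value. Pard3 and Pard6b, of the Par complex, fell by 0.76 and 0.88 on the log2 scale (edgeR adjusted p = 0.0181 and 0.0163). Crb3 and Patj, of the Crumbs complex, fell by 0.77 and 0.73 (edgeR adjusted p = 0.0194 and 0.00575). Patj was the steadiest of the 4, at 61.8, 55.8, 57.3 and 63.3 CPM against 87.5, 119, 104 and 84.7 CPM. Mpp5, whose protein joins Crumbs to Patj, was at 44.5, 40.5, 41.5 and 43.8 CPM against 60.2, 66.3, 50.6 and 51.3 CPM (log2 fold change −0.42 ± 0.099, edgeR adjusted p = 0.0188), with an adjusted p of 0.0603 once KO replicate 2 was left out.

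Desmosome genes were lower almost throughout, with all 10 below 0. For 9 of 10 every KO value was under every WT value, beside 12.3% of all genes. Dsp, the gene of desmoplakin, which links the plaque to keratin, was at 231, 212, 216 and 226 CPM in KO replicates 1 to 4 and at 314, 418, 404 and 328 CPM in WT replicates 1 to 4. Values under the KO label lay close together and ended well short of the lowest WT value. The mean was 1.66-fold lower (log2 fold change −0.73 ± 0.11, edgeR adjusted p = 0.00516). The plakin Evpl fell by 0.73 ± 0.12 on the log2 scale (edgeR adjusted p = 0.00656). Ppl, the third plakin, was at 50.03, 39.5, 53.8 and 56.2 CPM against 76.6, 162, 90.5 and 67.0 CPM, with WT replicate 2 highest by far. Its log2 fold change was −0.99 ± 0.27 (edgeR adjusted p = 0.0313), and −0.64 without that tumour (adjusted p = 0.0236). Leaving out WT replicate 3 or any of KO replicates 1, 2 and 3 ended the call, at adjusted p up to 0.0906.

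The 2 desmosomal cadherins differed by less than most members. Dsg2, encoding desmoglein 2, was at 135, 133, 144 and 153 CPM against 216, 246, 204 and 175 CPM (log2 fold change −0.58 ± 0.11, edgeR adjusted p = 0.00891). Dsc2, encoding desmocollin 2, was at 42.8, 37.3, 50.1 and 41.2 CPM against 50.7, 63.8, 55.6 and 53.8 CPM. Its groups were parted by less than 1 CPM, between KO replicate 3 and WT replicate 1. The log2 fold change was −0.39 ± 0.11 (edgeR adjusted p = 0.0358), and the call was lost in 6 of the 8 fits that leave out a tumour.

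Armadillo proteins had both the largest and the smallest desmosome differences. Pkp1, a plakophilin of stratified epithelia, was at 69.6, 35.7, 53.6 and 81.9 CPM under the KO label and 156, 88.1, 132 and 132 CPM under the WT label. KO replicate 4 came close to WT replicate 2. Its log2 fold change was −1.08 ± 0.26 (edgeR adjusted p = 0.0213, and up to 0.0551 with 1 tumour left out). Pkp2 and Pkp3, broadly made plakophilins, fell by 0.61 and 0.69 on the log2 scale (edgeR adjusted p = 0.00440 and 0.00871). Jup, whose protein plakoglobin is shared with adherens junctions, was at 268, 240.1, 235 and 248 CPM against 348, 335, 338 and 309 CPM (−0.43 ± 0.079, edgeR adjusted p = 0.00861). Pkp4, which is also found at adherens junctions, was at 117, 89.9, 96.9 and 104 CPM against 107, 123, 130.03 and 116 CPM. The ranges overlapped, and it did not pass (−0.22 ± 0.097, edgeR adjusted p = 0.134).

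Set against Epcam, most junction genes passed in neither direction. On a scale that makes Epcam equal in all libraries, 0 of the 40 were lower (6 were higher and 34 passed in neither direction), and their median log2 fold change was 0.20. On that scale 75.2% of all tested genes were higher and 0.631% lower, with a median of 0.89, because the scale follows the lower Epcam of the libraries labelled KO. The count of lower members was also 0 at an unadjusted p under 0.05. The 40 genes together gave 7.03, 7.17, 6.72 and 5.83 counts per Epcam count in KO replicates 1 to 4 and 5.80, 6.5, 5.17 and 6.06 in WT replicates 1 to 4. These ranges overlapped, with means of 6.69 ± 0.60 and 5.88 ± 0.56 (SD, n = 4 each). By class, the claudin sums (2.01 to 2.36 against 1.81 to 2.18) and the other tight junction sums (1.85 to 2.45 against 1.70 to 2.35) overlapped as well. The desmosome sums did not, at 2.36, 2.37, 2.28 and 1.97 counts per Epcam count under the KO label and 1.84, 1.96, 1.66 and 1.94 under the WT label, where KO replicate 4 lay just above WT replicate 2. Counts per Epcam count did not overlap between the groups for 6 members, all higher under the KO label, beside 64.9% of all genes, and for none were all KO values the lower ones, beside 0.326%. The error of the Epcam count itself does not enter these intervals. Scaling to the sum of the general epithelial genes, with Epcam left out of it, also gave 6 higher and 0 lower members, with a median of 0.15. On that scale 73.0% of all genes were higher and 0.747% lower.

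**Figure D3:**
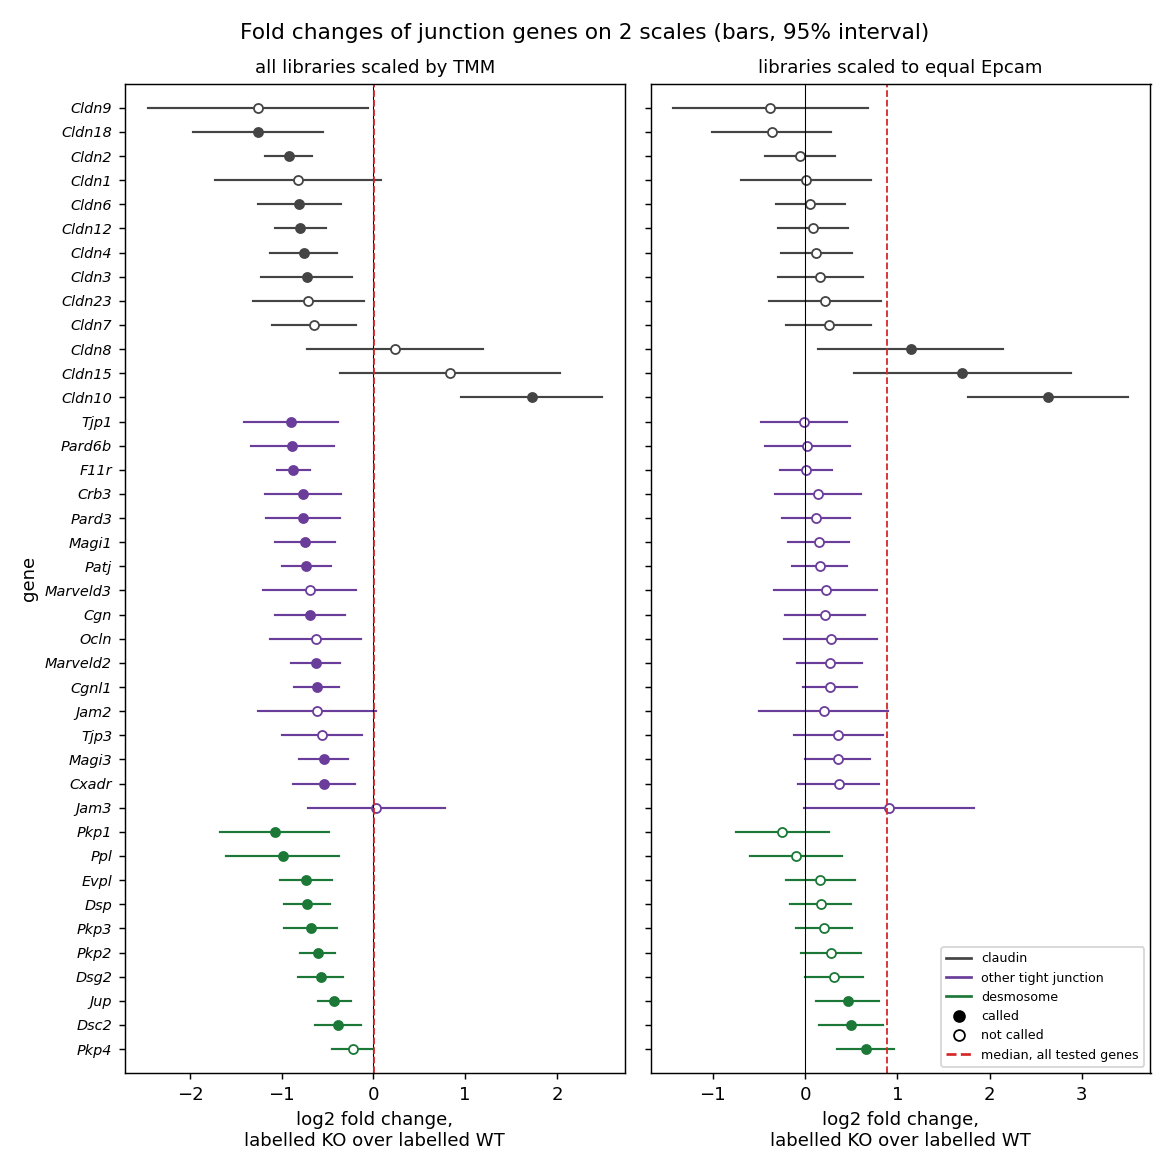
Log2 fold change (x axis, labelled KO over labelled WT) of each junction gene with its 95% interval, on the TMM scale (left) and with Epcam made equal (right). Filled points passed the test, and the dashed red line is the median of all tested genes, 0.011 on the left and 0.89 on the right. Most intervals lie below 0 on the left and include 0 on the right.

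F11r is an example with a small error. Per 100 Epcam counts it gave 30.9, 32.7, 32.2 and 27.4 counts under the KO label and 30.7, 30.6, 28.4 and 32.6 under the WT label, and its log2 fold change on the Epcam scale was 0.010 with a 95% interval of −0.27 to 0.29. Cldn4, Cldn2, Tjp1 and Dsp were at 0.12, −0.053, −0.015 and 0.17, with intervals of −0.27 to 0.50, −0.43 to 0.33, −0.48 to 0.45 and −0.17 to 0.50. The lowest values on the Epcam scale were those of Cldn9, Cldn18 and Pkp1, at −0.38, −0.36 and −0.25, and none passed the test. Cldn18 was at −0.80 and lower against the f/+ tumours alone (edgeR adjusted p = 0.0142), and at 0.28 against the +/+ tumours alone (edgeR adjusted p = 0.371).

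Of the members, 6 were higher than Epcam would give, beside 75.2% of all tested genes. The median log2 fold change of all tested genes on the Epcam scale was 0.89. Cldn10 gave 4.54, 5.73, 3.05 and 2.01 counts per 100 Epcam counts against 0.467, 0.895, 0.332 and 0.776 (log2 fold change 2.63 ± 0.39, edgeR adjusted p = 0.000355). Another 2 claudins of low level joined it, Cldn15 at 1.70 ± 0.54 (edgeR adjusted p = 0.0133) and Cldn8 at 1.14 ± 0.45 (0.0386). The Cldn15 groups overlapped, and its value was 0.93 without KO replicate 3 (adjusted p = 0.0544). The Cldn8 call was lost in 6 of the 8 fits that leave out a tumour. The other 3 were desmosome genes. Pkp4 gave 27.9, 24.9, 23.9 and 20.8 counts per 100 Epcam counts against 14.3, 15.3, 14.6 and 17.6 (0.66 ± 0.14, edgeR adjusted p = 0.00150). Jup gave 63.9, 66.6, 57.9 and 49.7 against 46.6, 41.8, 38.0 and 46.8 (0.46 ± 0.16, edgeR adjusted p = 0.0195), a call that each of KO replicate 1, KO replicate 2 and WT replicate 3 ended when left out. Dsc2 was at 0.50 ± 0.16 (edgeR adjusted p = 0.0146), with the call lost without KO replicate 3. All 3 lie below the median of all genes on that scale. The count of higher members was 3 without KO replicate 3, 11 without KO replicate 4 and 4 to 9 without any other tumour. Among all tested genes, 10323 of 14950 were higher without KO replicate 3 and 11570 of 14919 without KO replicate 4. Without any other tumour 10244 to 11100 genes were higher.

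**Figure D4:**
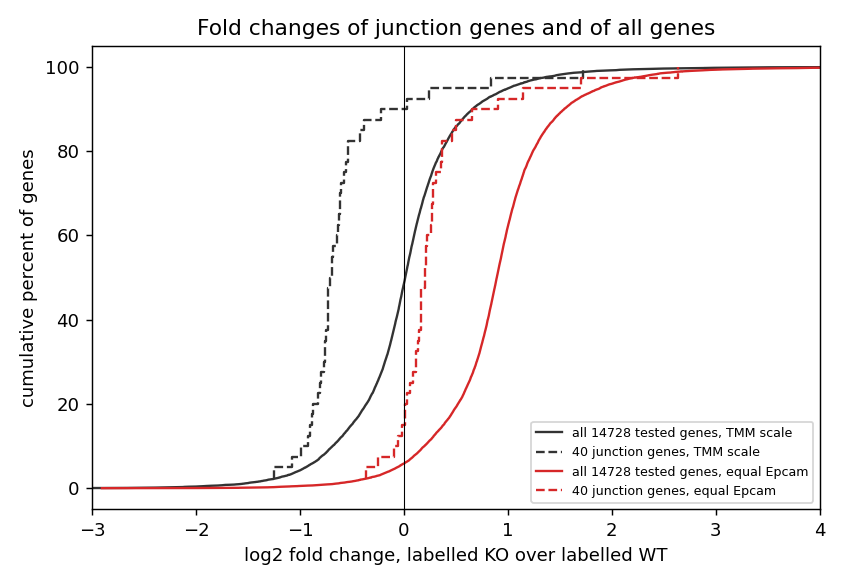
Cumulative percent of genes (y axis) by log2 fold change, labelled KO over labelled WT (x axis), for the 40 junction genes (dashed) and all 14728 tested genes (solid) on the TMM scale (grey) and with Epcam made equal (red). The dashed curve crosses its midpoint at −0.70 in grey and 0.20 in red, left of the solid curve in both, while the highest members, led by Cldn10, reach the upper end.

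The junction genes also varied within the WT label. WT replicate 2 was the highest of the 4 for 29 of the 40 members, beside 26.3% of all tested genes, and WT replicate 4 the lowest for 21, beside 24.0%. The mean of the 2 f/+ tumours was above that of the 2 +/+ tumours for 32 of 40, beside 48.8% of all tested genes, and both f/+ tumours were above both +/+ tumours for 10, beside 14.0%. Against the f/+ tumours alone 25 members were lower and 0 higher, beside 6.01% and 6.75% of all genes. Against the +/+ tumours alone 10 were lower and 1 higher, beside 3.93% and 3.41%. All 10 of the latter were among the 25. The median log2 fold change of the members was −0.80 against f/+ and −0.57 against +/+, and both comparisons use the same 4 libraries labelled KO. Of the 36 members below 0 in both, 30 had the larger difference against f/+. Tjp1 was at −1.19 against f/+ and −0.55 against +/+, Cldn6 at −1.06 and −0.51 and Cxadr at −0.70 and −0.36. For Tjp1 and Cxadr this leaned on WT replicate 2, at 336 and 274 CPM. WT replicate 1, also f/+, was at 192 and 189 CPM, and the +/+ tumours were at 178 and 160.0 CPM for Tjp1 and 187 and 177 for Cxadr. Without WT replicate 2 the log2 fold changes were −0.61 and −0.37. The parts of genotype and of that 1 tumour were not tested apart. Dsp and F11r were almost the same against either, at −0.72 and −0.73 for Dsp and −0.88 and −0.86 for F11r. Under the KO label, replicate 3 was the highest for 18 members, beside 24.4% of all tested genes, and replicate 2 the lowest for 19, beside 23.2%.

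Genes of other cell junctions were mostly below 0 as well. Of 87 tested on 5 further lists, 42 (48.3%) were lower and 5 (5.75%) higher, beside 10.8% and 11.1% of all tested genes. The other 40 passed in neither direction, and the median of the 87 was −0.50. The lower calls numbered 26 without KO replicate 2, where 837 of all 14962 tested genes were lower, against 1586 of 14728 with no tumour left out. Beyond the members, 12 of 33 further tight junction genes (36.4%) were lower and 2 (6.06%) higher, the latter a smaller share than among all genes. Lsr, whose protein recruits tricellulin, was at 119 to 134 CPM against 182 to 214 (log2 fold change −0.62), Igsf5 at −0.82 and Amotl1 at −0.68. Cdc42, a small GTPase with roles well beyond junctions, was at 0.31 and lost its call in 7 of 8 fits that leave out a tumour, and Arhgap17, which regulates it, was at 0.54. Perp, a desmosome-associated membrane protein, and Kazn were lower, at −1.08 and −0.81, of 3 further desmosome genes tested.

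Adherens junctions, which lie next to tight junctions and bind actin through cadherins and catenins, had 17 of 27 genes lower and 3 higher, beside the 10.8% and 11.1% of all tested genes, so that the share higher was that of genes in general. Lmo7, Plekha7 and Shroom3 fell by 1.10, 1.05 and 0.82 on the log2 scale. Those higher were Ptprj (0.77), Tln1 (0.60) and Zyx (0.48), whose products are also made in leukocytes, and the marker sums of leukocytes given above were higher in the same tumours. The part of those cells in these values was not tested. Of 9 gap junction genes 3 were lower, among them Gjb1 and Gjb5, at −0.78 and −0.91, and of 15 further polarity genes 8, with Dlg3 and Dlg5 each at −0.75 and Celsr1 at −0.63. Gjb1 and Gjb5 lost their calls in some fits with 1 tumour left out (edgeR adjusted p up to 0.0682 and 0.0737), and Zyx did as well (0.0661). Among 20 regulators of junction genes 8 (40%) were lower and 1 (5%) higher, beside the same 10.8% and 11.1% of all tested genes. Esrp1, an epithelial splicing factor, fell by 0.93 and Ehf by 0.77. Zeb2, a repressor that binds E-boxes and is also made in macrophages, rose, at 429, 472, 349 and 545 CPM against 222, 136, 172 and 232 CPM (log2 fold change 1.24). The part of macrophages in the Zeb2 value was not tested, nor was any link of Zeb2 to the junction genes. Relative to Epcam, 35 of the 87 other junction genes were higher and 0 lower, beside 75.2% and 0.631% of all tested genes, and their median was 0.39 against 0.89.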

How the data were processed

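Gene counts were deposited by the authors as a table of raw counts for 8 libraries, 1 per tumour, made with HOMER over mm10 exons with its plus-strand setting, per the file headers. A second table holds FPKM values, which the authors deposited for the same libraries and scaled by transcript length and library size, per the file headers. FastQC 0.11.2, STAR 2.4.0k, HOMER and edgeR 3.6.8 are named in the submitters' processing notes, without their settings. Whether the libraries were stranded is not given in the sources used here. Exons of 6 members (Cldn3, Cxadr, Dsg2, Dsp, Jam3 and Tjp3) overlap a gene on the other strand, whose reads could then be counted with them.

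Groups follow the sample titles. Counts were tested with edgeR 4.0.16 in R 4.3.3 (quasi-likelihood test, TMM scaling, filterByExpr with a minimum count of 10 and a minimum total of 15, Benjamini-Hochberg adjustment over all 14728 genes, threshold 0.05). SE and 95% intervals come from that fit. For values relative to Epcam the library sizes were set proportional to the Epcam counts, and the whole table was fitted again. Alternatives were DESeq2 1.42.0, limma 3.58.1 on log2 FPKM with a pseudocount of 1 or 0.1 and a mean of at least 0.5, other scalings, no filter, each tumour left out, and either control genotype alone. Leaving out the tumour of each group with most acinar RNA was added after the data were seen. The scripts were tested on simulated data. The 2 tables use the same transcript for 28 of 40 members and another for 12. Promoter windows are from RefSeq GRCm38.p6, and 26 members matched.

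Members and lists were chosen with earlier results of these data known. All members in the table are named, and from each other list the called genes with the 3 smallest p in each direction. A few items that the rule or the genotype would name are not reported here.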

Additional observations from a re-analysis of the deposited data

Results flagged for a closer look

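In 4 of 84 groups of 4 tumours examined, 1 tumour stood apart from the other 3 by Dixon's criterion, a gap of more than 0.829 of the group's range, and chance alone flags about 1 in 20 such groups. Cldn1 was at 20.9 CPM in KO replicate 4 and at 7.13 to 8.52 CPM in the other tumours labelled KO. Cgn was at 36.5 CPM in the same tumour, below the 43.0 to 44.2 CPM of the others. Ocln was at 75.8 CPM in WT replicate 2 and at 37.1 to 43.0 CPM in the other tumours labelled WT. Cxadr was at 274 CPM in that tumour and at 177 to 189 CPM in the others.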

How the results depend on the processing

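Between 20 and 33 members were lower under every alternative except 2: 10 with the +/+ controls alone and 17 to 28 with 1 tumour left out. Cldn10 was the 1 higher member in all but the f/+ controls alone, where there were 0. Of all genes, 1586 were lower and 1630 higher, and these numbers were 3108 and 900 with library totals alone, 592 and 514 with +/+ controls, 907 and 1019 with f/+ controls, and 964 and 928 without the tumours of most acinar RNA. From FPKM they were 2849 and 904 (pseudocount 1), 2864 and 906 (pseudocount 0.1) and 2616 and 780 (no filter), and with 1 tumour left out 837 to 1592 and 918 to 1649. With library totals alone the all-gene median was −0.17 in place of 0.011, the member median −0.89 in place of −0.70, and higher genes made up 22.5% of calls in place of 50.7% (24.1%, 24.0% and 23.0% in the 3 FPKM settings). For the other junction genes, 42 were lower (12 with +/+ controls, 26 to 45 with 1 tumour left out) and 5 higher (2 with library totals or any FPKM setting, 1 with either control genotype, 3 without the acinar-rich tumours, 3 to 5 with 1 tumour left out). Relative to Epcam, 6 members were higher (2 with +/+ controls, 3 with f/+ controls, 3 to 11 with 1 tumour left out) and 0 lower (1 with f/+ controls, Cldn18). Of all genes 11076 were higher on that scale (9486 with +/+ controls, 9941 with f/+ controls, 10244 to 11570 with 1 tumour left out). Jam3 changed sign, to −0.15 with library totals, −0.21 with +/+ controls, −0.035 from FPKM without a filter, −0.24 without the acinar-rich tumours and −0.12 to 0.24 with 1 tumour left out. On the Epcam scale Cldn9 did so, at 0.54 with +/+ controls, 0.13 without the acinar-rich tumours and −0.63 to 0.17 with 1 tumour left out, and Cldn18 was at 0.28 with +/+ controls. The cause was not tested. No paired analysis was possible because the titles carry animal numbers that the groups do not share. Jam3, Cldn8 and Cldn9 have the fewest counts of the 40, so relative counting error is largest for them.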
